A study of Arabidopsis thaliana with 6 samples.

Results

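Heat shock genes are described here in 15-day-old seedlings of Arabidopsis thaliana. The 10 genes chosen are the heat shock factors HSFA2 and HSFA6A, the small heat shock proteins HSP17.6A, HSP17.4, HSP18.2, HSP17.6C (AT1G53540), HSP22, HSP23.6 and HSP21, and the disaggregase HSP101. They were picked by identifier, with results of these data known. Of the 10, 6 are among the 1336 genes that the authors listed as changed in the sams3 mutant. For comparison, 4.68% of all protein-coding genes of the reference were listed. RNA was sequenced from 2 libraries of sams3, mutated in a gene for S-adenosylmethionine synthetase, the enzyme that makes the cell's methyl donor, and from L119, the transgenic line that took the place of the wild type, also in 2 libraries. Bisulfite libraries, 1 of sams3 and 1 of L119, were not analysed here. The labels give L119 as the ecotype of both genotypes, and they name neither the sams3 allele nor the transgene. All seedlings were raised at 22 °C with 23 h of light a day on MS agar with sucrose, and the labels record no heat treatment.

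Plants answer heat by switching on chaperones through heat shock factors, which bind short inverted repeats in the promoters of their targets. The HSFA1 factors start the response, and HSFA2, itself a target, prolongs it. Small heat shock proteins hold unfolding proteins in a soluble state, and HSP101 pulls aggregated proteins apart with help from HSP70 and its J-domain partners. In seedlings grown without heat most of these genes are known to be weakly expressed.

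The available values are the authors' log2 fold changes, sams3 over L119, and their p-values. No level in a single library was available, so the scatter between the libraries cannot be shown beside a fold. Genes entered the authors' deposited tables with a change of at least 2-fold and a p-value below 0.0001, per the file headers. A gene outside them is called not listed, which says nothing of its size of change or of its expression. Nothing in the labels says that the 2 libraries of a genotype came from separate cultures. The p-values then reflect only how far these libraries differed, which may be technical. Fewer cells that express a gene and less RNA per cell cannot be told apart in whole seedlings. The SAMS3 gene is in neither table, and sequencing depth is unknown.

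Chaperone genes among the 10 were listed only as higher in sams3, and the heat shock factors split. The authors' deposited tables hold 5 of the 10 as higher (HSP17.6A, HSP17.4, HSFA2, HSP18.2 and HSP101), 1 as lower (HSFA6A), and the other 4 (HSP17.6C, HSP22, HSP23.6 and HSP21) not at all. As a background, 3.11% of the 27562 protein-coding genes of the reference were listed higher and 1.57% lower, or 4.68% either way. How many genes entered the authors' test is not known here. The 10 genes were chosen with results of these data known, so their count is a description.

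HSP17.6A (AT5G12030), a small heat shock protein of the cytosol, had a log2 fold change of 2.73 in the authors' deposited table, or 6.61-fold higher in sams3. Its p-value there was 7.72e-06. HSP17.4 (AT3G46230), another cytosolic small heat shock protein, was close behind at a log2 of 2.70 in the authors' deposited table, 6.51-fold higher in sams3, with a p-value of 2.24e-10. These are the largest rises among the listed small heat shock proteins and heat shock factors. Of the 894 higher genes in the authors' deposited table, 82.7% had a smaller fold than HSP17.6A, while only 7.27% had a larger p-value. HSP17.6A thus combined a large fold with one of the larger p-values of this list. HSP17.4 had a larger fold than 82.3% of the higher genes in the authors' deposited table and a smaller p-value than 26.7% of them.

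HSP18.2 (AT5G59720), a cytosolic small heat shock protein long used as a heat marker, rose less. Its log2 was 1.25 in the authors' deposited table, 2.37-fold higher in sams3, with a p-value of 5.58e-10. In the deposited descriptions HSP17.4 and HSP18.2 share the same best protein match, HSP17.6C (AT1G53540), which is not listed. HSP17.6A has HSP17.6II (AT5G12020) as its best match. That gene is named as a class II small heat shock protein, lies next to HSP17.6A in the reference and is not listed either. Reads of close copies may be split between them, so the single values of these genes are uncertain.

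HSP101 (AT1G74310), the disaggregase of the cytosol that thermotolerance requires, stood just inside the threshold. Its log2 was 1.01 in the authors' deposited table, or 2.01-fold higher in sams3. Its p-value of 3.35e-30 is the smallest of the 6 listed genes. Only 0.783% of the higher genes in the authors' deposited table had a smaller fold, whereas 60.2% had a larger p-value. HSP101 thus combined one of the smallest folds of the list with a p-value nearer its middle. HSP17.6A had a large fold with one of the larger p-values. Every gene in the lists changed at least 2-fold, so no heat gene just outside the threshold can be shown.

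HSFA2 (AT2G26150), the factor that sustains the heat response, had a log2 of 1.68 in the authors' deposited table. This is 3.21-fold higher in sams3, with a p-value of 4.33e-22. It lay in the middle of the list, with a larger fold than 53.6% of the higher genes in the authors' deposited table, whose median log2 was 1.62.

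HSFA6A (AT5G43840), a class A factor related to HSFA2, went the other way. In the authors' deposited table its log2 was -4.23, which is 18.8-fold lower in sams3, with a p-value of 3.61e-09. Its fall ranked at place 7 of 442 lower genes by size and at place 303 by p-value. The median log2 of all lower genes in the authors' deposited table was -1.27. Without levels it cannot be said how strongly HSFA6A was expressed in L119.

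**Figure D1:**
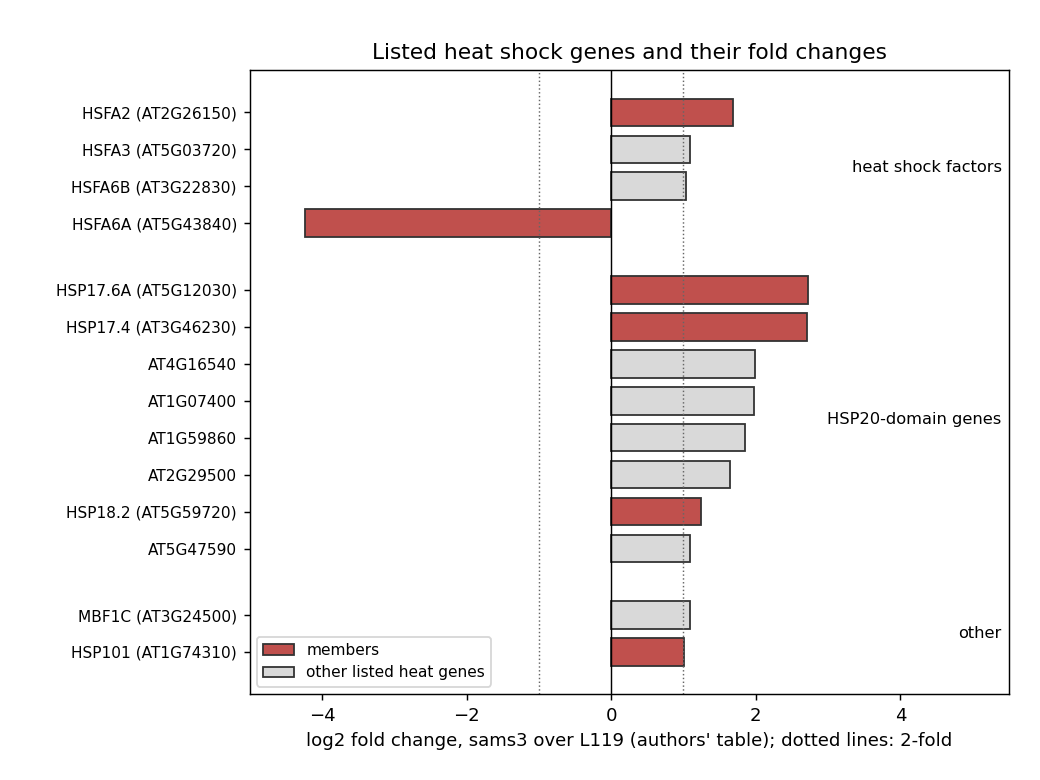
Authors' log2 fold changes (x axis, sams3 over L119) of the 14 listed genes that belong to a heat list or have an HSP20 or heat shock factor domain, 1 bar per gene, with the 6 listed genes of the chosen set in red, other heat genes in grey and the 2-fold thresholds dotted. HSFA6A at -4.23 is the only bar to the left of 0, and HSP17.6A and HSP17.4 reach 2.73 and 2.70.

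Other heat shock factors were also listed. Of the 21 factors of the family, 3 were higher (14.3%) and 1 lower, and 17 were not listed. Among all protein-coding genes 3.11% were higher and 1.57% lower, as given above. The family count includes the chosen HSFA2 and HSFA6A, and the list was written with earlier results of these data known. It therefore partly restates the choice and is a description. HSFA3 (AT5G03720), a factor known to act under the drought and heat regulator DREB2A, had a log2 of 1.09 in the authors' deposited table (p = 1.28e-19, authors' comparison). HSFA6B (AT3G22830), known for its part in the abscisic acid response, had a log2 of 1.03 in the authors' deposited table. The deposited descriptions give HSFA6B as the best protein match of both HSFA2 and HSFA6A. Within this trio of related factors HSFA2 and HSFA6B were thus listed higher and HSFA6A lower. None of the 4 HSFA1 genes or the 5 class B genes, which are mostly repressors, was listed. With 4.68% of all protein-coding genes listed either way, counts of 0 among 4 and 5 genes are near the background. They are not a result about the HSFA1 or class B genes. DREB2A was not listed.

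Cytosolic small heat shock proteins were listed more widely than the chosen genes alone show. Of the 9 genes in the cytosolic list, 6 were higher and 0 lower, beside 3.11% higher and 1.57% lower among all protein-coding genes. This list includes chosen genes and was written with earlier results of these data known, so the count is a description. The median log2 over these 6 was 1.91. Besides HSP17.6A, HSP17.4 and HSP18.2 they are 3 genes that the deposited descriptions call only HSP20-like chaperones. The authors' deposited table gives log2 values of 1.97 for AT1G07400 (p = 3.09e-12, authors' comparison), 1.85 for AT1G59860 (p = 3.26e-14, authors' comparison) and 1.64 for AT2G29500. AT1G07400 and AT1G59860 are each other's best protein match, and AT2G29500 has AT1G07400 as its own, so these 3 values may share reads. The 3 cytosolic genes not listed are HSP17.6C, HSP17.6II and AT1G54050.

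In the list of 6 small heat shock proteins of organelles, 0 were higher and 0 lower in the authors' deposited tables. With 4.68% of all protein-coding genes listed either way, a count of 0 among 6 genes is near the background and is not a result about them. They include HSP21 of the chloroplast, HSP22 of the endoplasmic reticulum and HSP23.6 of mitochondria. Whether the cytosolic and organelle genes differ was not tested, since genes that are not listed have no values.

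For larger chaperones the counts were small. In the HSP70 and HSP90 families 0 of 21 genes were listed in either direction, which is also near the 4.68% of all protein-coding genes. HSP101, itself a chosen gene, was the listed gene of 3 in the HSP100 family, and CLPB3 and CLPB4 were not listed. That count therefore adds nothing to the value of HSP101. Among 11 co-chaperones and other heat-induced genes 1 was higher (9.09%), beside 3.11% of all protein-coding genes. With so few genes this is not a result about the group. The listed gene was MBF1C (AT3G24500), a transcriptional coactivator of thermotolerance, at a log2 of 1.10 in the authors' deposited table (p = 2.91e-24, authors' comparison). The other 10, among them FKBP62, HOP3, BAG6, HSA32 and APX2, were not listed. Over all 71 heat genes, 11 were higher, 1 was lower and 59 were not listed. Without the 10 chosen genes, 6 of 61 were higher (9.84%) and 0 lower, beside 3.11% and 1.57% of all protein-coding genes. The lists were also written with earlier results of these data known, so this share is a description. Among the 6, AT1G07400, AT1G59860 and AT2G29500 are tied by best protein match, and HSFA6B is tied to the chosen HSFA2.

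**Figure D2:**
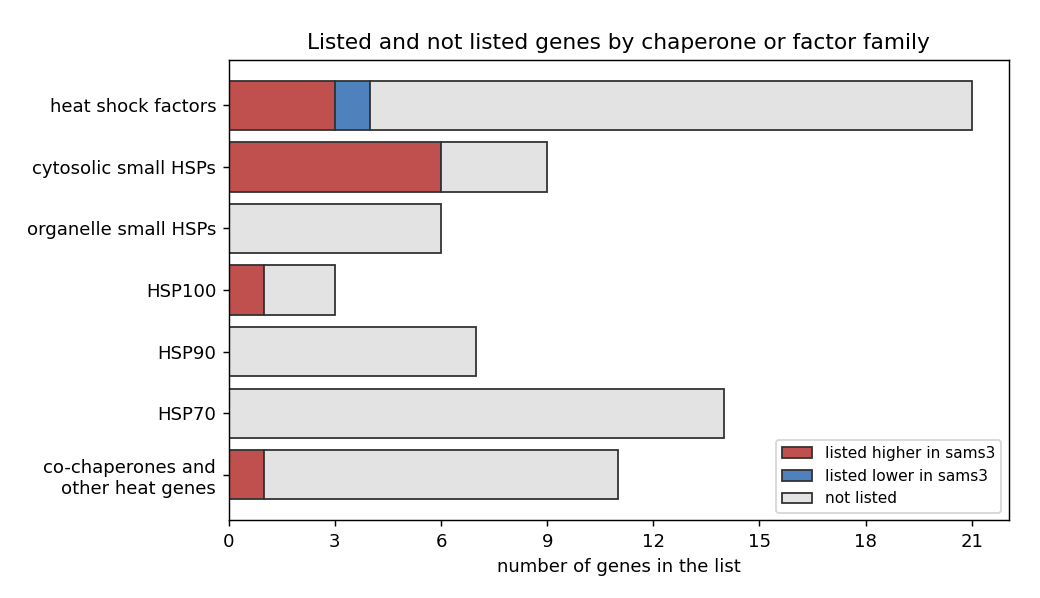
Number of genes (x axis) listed higher in sams3 (red), listed lower (blue) and not listed (grey) in each of 7 families of chaperones, heat shock factors and other heat genes (y axis). Of the 9 cytosolic small heat shock proteins 6 are red. The bars for organelle small heat shock proteins, HSP90 and HSP70 hold no listed gene, near the 4.68% of all protein-coding genes listed either way, and the families were not tested against each other.

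Genes with an HSP20 domain in the deposited descriptions, the domain of small heat shock proteins, numbered 8 higher and 0 lower, beside 66.9% higher among all listed genes. Their log2 values ran from 1.10 to 2.73 in the authors' deposited table with a median of 1.91. HSP17.6A, HSP17.4 and HSP18.2 among them are chosen genes, and AT1G07400, AT1G59860 and AT2G29500 are tied by best protein match. The count therefore partly restates the choice and is a description. Of the 8 genes, 5 are outside the chosen set and 2 are in no heat list. AT4G16540 had a log2 of 1.99 (p = 6.29e-12) and AT5G47590 of 1.10 (p = 5.99e-17) in the authors' deposited table. Both descriptions also name a peptidase domain and proteolysis, so that a role as chaperone is not given for them. No listed gene had an HSP70 domain.

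J-domain annotations, the mark of HSP70 partners, went both ways, with 3 listed genes higher and 4 lower, beside 66.9% higher among all listed genes. With so few genes this split is not a result about HSP70 partners. The choice to name these genes came after a look at their values. The higher ones in the authors' deposited table were AT2G21510 (log2 2.72), AT4G27980 (1.51) and AT2G20560 (1.02), the first and last described as protein folding genes. The lower ones in the authors' deposited table were RL5 (log2 -2.15), AT1G72416 (-1.62), RL6 (-1.58) and AT5G01200 (-1.18). RL5, RL6 and AT5G01200 also carry a SANT or MYB-like DNA-binding domain in their descriptions and are known or described as transcription factor relatives. AT1G72416, described as a DnaJ-domain chaperone, is therefore the lower gene that is described by this domain alone.

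Process terms in the deposited descriptions reach beyond chaperones. Listed genes annotated with a response to heat numbered 6 higher and 0 lower. Terms could be read for 443 of the 894 higher and 162 of the 442 lower genes, and 73.2% of these 605 genes were higher. HSP17.6A, HSP17.4, HSP101 and HSFA3 make up 4 of the 6 genes with the heat term. All of these but HSFA3 belong to the chosen genes, so the count partly restates that choice. The other two, named with their values known, are RBOHD, the oxidase that makes reactive oxygen at the plasma membrane, with a log2 of 1.32 (authors' deposited table), and the annexin gene ANNAT3 with a log2 of 1.18 (authors' deposited table). HSFA2 and HSP18.2 are not among these 6, since the description of HSFA2 gives only a number of processes and that of HSP18.2 none. Terms for hydrogen peroxide and for high light each had 3 higher and 0 lower genes, beside the same 73.2%. Counts this small, that of the heat term included, are not far from that share and are not a result about these terms. The chosen genes HSP101 and HSP17.6A carry both terms. The remaining genes are the trypsin inhibitor KTI1 (log2 2.47 in the authors' deposited table) for hydrogen peroxide and ERD7 (log2 1.66 in the authors' deposited table) for high light. KTI1 and ERD7 were likewise named with their values known.

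**Figure D3:**
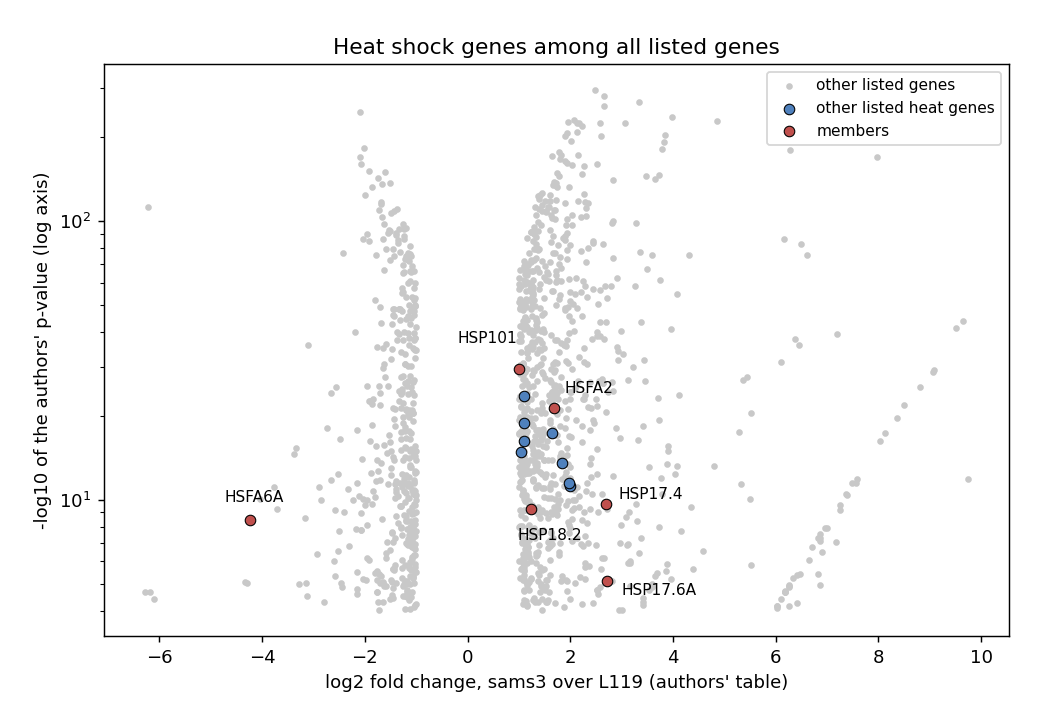
Authors' log2 fold change (x axis, sams3 over L119) against -log10 of the authors' p-value (y axis, log scale) for 1329 listed genes, with the chosen genes in red and the other listed heat genes in blue; 7 genes with a p-value listed as 0 are not drawn. HSP101 sits at the edge of the list at a log2 of 1.01, HSP17.6A far down at 2.73 and HSFA6A is the one coloured point on the left, at -4.23.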

How the data were processed

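RNA libraries of sams3 and L119 seedlings, 2 of each, were compared by the authors. The deposited tables hold the authors' log2 fold changes (sams3 over L119) and p-values for genes that passed a 2-fold change and a p-value limit of 0.0001, per the file headers. The sources used here give neither the depth nor whether p was adjusted. Tools named in the submitters' processing notes are edgeR, Bowtie2 and Bismark, and the build is TAIR10. The table headed as TEs that rose repeats the list of higher genes byte for byte and was not used. The list of lower TEs holds 0 of the 10 genes.

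Genes were matched by identifier, and 1335 of 1336 were found in the RefSeq table of assembly TAIR10.1, which gave symbols and gene order only. The 10 genes and the 7 heat lists (71 genes, written from general knowledge) were chosen with earlier results of these data known, so they are described by counts and no test was run. Domains, process terms and best protein matches were read from the deposited descriptions. Named genes were the 10, every listed gene of a heat list and every listed gene with an HSP20, heat shock factor or HSP70 domain. Python 3.11.15, numpy 2.4.6, pandas 2.3.3 and matplotlib 3.10.9 were used, and the counting was tested on simulated directions. Alternatives were stricter fold and p thresholds and related genes counted once.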

Additional observations from a re-analysis of the deposited data

How the results depend on the processing

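Stricter thresholds leave fewer genes by construction. Of all 894 higher genes, 492 remained at an absolute log2 of 1.5 or more and 288 at 2 or more. The Bonferroni threshold given below left 790 of them. For the 442 lower genes the same 3 settings left 142, 58 and 362. The counts of heat genes below are to be read beside these. Of 40 counts under alternatives, 25 stayed within 1.5 times the reported count and 15 moved further. At an absolute log2 of 1.5 or more, the chosen genes numbered 3 higher (HSP17.6A, HSP17.4 and HSFA2), all heat lists 6 and the heat shock factor family 1. At an absolute log2 of 2 or more, the chosen genes numbered 2 higher (HSP17.6A and HSP17.4), all heat lists 2, cytosolic small heat shock proteins 2, genes with an HSP20 domain 2, the factor family 0 and genes with its domain 0. Genes with a J-domain were then 1 higher and 1 lower, those annotated with a response to heat 2, and those with high light 1. HSFA6A remained lower under each of these thresholds. With a Bonferroni threshold of 1.31e-06 over 38094 reference loci, HSP17.6A was the one chosen gene that no longer passed, and the chosen genes numbered 4 higher and 1 lower. Genes tied by their best protein match were also counted once, an alternative chosen after the data were seen, which left 7 higher over all heat lists and 3 higher cytosolic small heat shock proteins. No paired analysis was possible because values of single libraries were not available, and for the same reason leaving out each replicate was not run. Counting genes once by protein identity and the search for heat shock elements in promoters were not run, since no sequences were used here. The unknown depth limits what can be said of genes that are not listed.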

Other observations

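The loci next to the 10 heat genes in the reference, 1 on each side, were 17 protein-coding genes and 3 long noncoding RNA loci, and 0 of them were listed. For the 17 genes this is near the 4.68% of all protein-coding genes listed either way.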
